A study of Rattus norvegicus with 6 samples.

Results

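The voltage-gated sodium channel genes were examined in RNA-seq data of rat tissue labelled as spinal cord. The 9 genes are *Scn1a*, *Scn2a*, *Scn3a*, *Scn8a*, *Scn9a*, *Scn10a*, *Scn11a*, *Scn2b* and *Scn4b*, and each matched 1 of the 22050 gene rows by its symbol. They were chosen by name with their CPM values in these 6 libraries already known. For them the comparison of SNI-NP with sham rats is therefore a description. Where calls at a threshold are counted for them below, the counts are not a test of these genes. The groups were 3 male Sprague–Dawley rats with spared nerve injury (SNI-NP rats), a model of neuropathic pain that cuts the tibial and common peroneal nerves and leaves the sural nerve intact, and 3 sham-operated rats of the same strain and sex, all young adults. The labels of the 6 libraries name no further treatment. The spinal level, the side and the time after surgery of these 6 libraries were not given in the sources used here. The libraries held between 16670760 and 18151156 estimated counts, and the level that a count of 0 allows was 0.165 to 0.18 CPM (the count of a gene after all libraries were brought to equal size by TMM), for counting error only. Nothing in the labels says more on how the 3 samples of a group were obtained, so the errors measure the spread between these samples.

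Voltage-gated sodium channels open when a membrane is depolarised and carry the inward current of the action potential. Each channel has a large alpha subunit that forms the pore and smaller beta subunits that alter gating and hold the channel at the membrane. Alpha subunits differ in where they are found. The genes *Scn1a*, *Scn2a*, *Scn3a* and *Scn8a* encode Nav1.1, Nav1.2, Nav1.3 and Nav1.6, which are found in central neurons, though not only there. These genes are called central below as a name only, and which cells gave their RNA was not tested. Nav1.3 is also known to reappear in sensory neurons after axotomy. *Scn9a* encodes Nav1.7, which is abundant in sensory and sympathetic neurons. *Scn10a* and *Scn11a* encode the tetrodotoxin-resistant channels Nav1.8 and Nav1.9 of nociceptors, whose cell bodies lie in the dorsal root ganglia and not in the cord.

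The promoters of 4 of these genes are shown, because *Scn10a* and *Scn11a* kept nearly the same ratio to each other in all 6 libraries, and *Scn3a* and *Scn9a* had no SNI-NP rat as high as any sham rat. Each line holds the 250 bases before the gene start from RefSeq on the build GRCr8, which is not the build of the deposited counts. Capitals mark a match to one of the motifs searched.
Scn10a (chr8:128340299-128340548, minus strand): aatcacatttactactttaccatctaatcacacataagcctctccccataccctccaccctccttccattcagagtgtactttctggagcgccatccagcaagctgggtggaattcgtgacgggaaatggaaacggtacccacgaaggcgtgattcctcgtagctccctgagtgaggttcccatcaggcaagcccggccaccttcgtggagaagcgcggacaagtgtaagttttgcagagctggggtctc
Scn11a (chr8:128444719-128444968, minus strand): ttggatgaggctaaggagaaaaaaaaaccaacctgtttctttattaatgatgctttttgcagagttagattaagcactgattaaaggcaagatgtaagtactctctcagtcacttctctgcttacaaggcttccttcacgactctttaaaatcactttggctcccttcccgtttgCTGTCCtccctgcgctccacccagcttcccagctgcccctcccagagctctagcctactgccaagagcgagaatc
Scn3a (chr3:70666199-70666448, minus strand): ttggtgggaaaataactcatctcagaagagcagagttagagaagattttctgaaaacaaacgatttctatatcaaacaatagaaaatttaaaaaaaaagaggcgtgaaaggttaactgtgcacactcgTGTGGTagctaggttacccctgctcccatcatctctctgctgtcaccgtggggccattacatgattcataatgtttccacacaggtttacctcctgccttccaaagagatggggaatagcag
Scn9a (chr3:71701378-71701627, minus strand): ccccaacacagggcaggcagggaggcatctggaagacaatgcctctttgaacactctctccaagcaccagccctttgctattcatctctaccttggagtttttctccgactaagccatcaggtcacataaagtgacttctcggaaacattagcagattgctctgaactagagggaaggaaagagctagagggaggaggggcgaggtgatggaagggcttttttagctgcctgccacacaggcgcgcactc

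RefSeq windows matched 8 of the 9 genes, and *Scn1a* had no entry. The motifs searched on both strands were the TATA box TATAAA, the CCAAT box CCAAT, the GC box GGGCGG, the homeodomain core TAATTA, the RUNX core TGTGGT, and the left and right parts TTCAGCACC and GGACAG of the element bound by the neuronal gene repressor REST. None of these motifs contains another. The *Scn11a* window held the right part GGACAG on the opposite strand, beginning 75 bases before the gene start, and the *Scn4b* window held it on that strand too, beginning 44 bases before. That motif was in 18.2% of all 33469 promoter windows of this length. *Scn3a* held the RUNX core, beginning 122 bases before the start, and so did *Scn2b*, on the opposite strand, and this motif was in 14.5% of all windows. *Scn8a* held 6 copies of the GC box, which 30.5% of windows had at least once. The windows of *Scn2a*, *Scn9a* and *Scn10a* held none of these motifs. In base composition the windows ran from 38.8% G and C in *Scn2b* to 86.0% in *Scn8a*, which was above 99.9% of all windows. *Scn10a* at 53.2% and *Scn11a* at 46.4% lay between these.

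The labelled tissue was checked against markers before the channel values were read. *Prx*, which encodes periaxin of myelinating Schwann cells in peripheral nerve, took between 0.405% and 0.615% of all counts of a library. The 5 Schwann cell markers reported here summed to between 6841 and 9250 CPM in sham rats and between 8381 and 11523 CPM in SNI-NP rats. Of 10 markers of dorsal root ganglion neurons, 9 had counts and *Mrgprb5* was at 0 in all libraries. Their sum was 278 CPM in sham replicate 1, 530 in replicate 2 and 615 in replicate 3. In SNI-NP rats the sum was 73.7 CPM in replicate 1, 850 in replicate 2 and 602 in replicate 3. SNI-NP replicate 1 therefore stood apart from the other 5 libraries in its ganglion markers. Central markers were also present. *Gfap*, the intermediate filament gene of astrocytes, lay between 332 and 863 CPM. *Hoxd10*, a gene of lumbar segments that was read for body level only, lay between 4.96 and 9.85 CPM. *Mnx1*, 1 of 6 motor neuron markers, was between 0 and 0.54 CPM, near the level that a count of 0 allows. It alone does not give the motor neuron content. The other 5 markers of that list had enough counts to be tested, and their median log2 fold change was -0.65. The 5 astrocyte markers summed to between 736 and 1793 CPM in sham rats and between 884 and 1250 CPM in SNI-NP rats. In bulk tissue, fewer cells of a type and less RNA per cell cannot be told apart.

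Levels were compared between genes as FPKM, the deposited counts per kilobase of gene, scaled to the library total. *Scn4b*, whose beta subunit is tied to the resurgent sodium current, had the highest median over the 6 libraries at 44.9 FPKM. *Scn10a* followed at a median of 30.8 FPKM, and *Scn2b*, which encodes a beta subunit linked to alpha subunits by a disulfide bond, was at 23.6 FPKM. *Scn11a* had a median of 22.7 FPKM. Thus both nociceptor genes were among the 4 highest in tissue labelled as cord. *Scn8a* was next, between 8.57 and 18.51 FPKM, and *Scn1a* had a median of 7.31 FPKM. *Scn9a* had a median of 2.94 FPKM, *Scn2a* of 1.46 FPKM and *Scn3a*, the lowest, of 0.675 FPKM.

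The ranges of all 8 pairs of neighbours in this order overlapped. Within single libraries *Scn4b* was above *Scn10a* in 6 of 6, *Scn8a* above *Scn1a* in 6 of 6, *Scn1a* above *Scn9a* in 6 of 6 and *Scn2a* above *Scn3a* in 6 of 6. *Scn9a* was above *Scn2a* in 5 of 6 libraries. The places of *Scn10a*, *Scn2b*, *Scn11a* and *Scn8a* varied from library to library. *Scn10a* was above *Scn2b* in 4 of 6 libraries, *Scn2b* above *Scn11a* in 3 of 6, and *Scn11a* above *Scn8a* in 4 of 6.

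**Figure D1:**
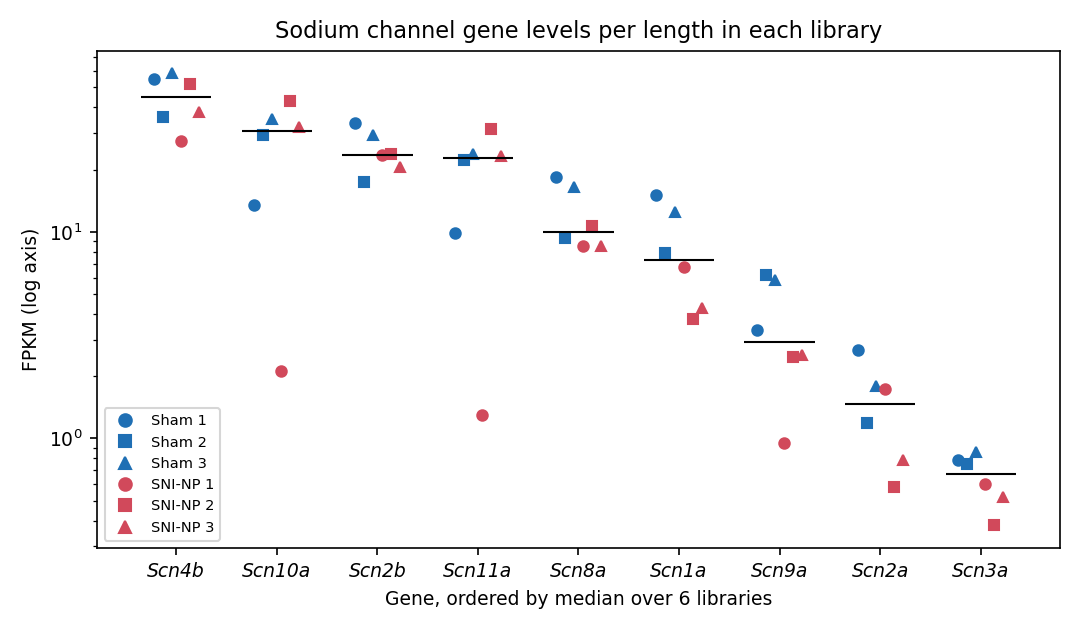
FPKM of each of the 9 genes in each library, on a log axis, with blue points for sham rats, red points for SNI-NP rats, a shape for each replicate number and a line at the median of the 6 libraries. *Scn10a* and *Scn11a* span from 2.11 to 42.85 and from 1.30 to 31.5 FPKM, with SNI-NP replicate 1 lowest in both.

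*Scn10a* (ENSRNOG00000032473), the Nav1.8 gene, was at 88.1, 184 and 227 CPM in sham replicates 1 to 3 and at 14.3, 277 and 212 CPM in SNI-NP replicates 1 to 3. SNI-NP rats held both the lowest and the highest value, so the groups overlapped. Sham rats averaged 166 ± 70.9 CPM and SNI-NP rats 168 ± 137 CPM (SD, n = 3 each), and the log2 fold change of SNI-NP against sham was 0.01 ± 0.85 (SE). *Scn11a* (ENSRNOG00000032884), the Nav1.9 gene, was at 58.1, 125 and 140 CPM in sham replicates and at 7.99, 184 and 138 CPM in SNI-NP replicates. The order of the 6 libraries was the same as for *Scn10a*, from SNI-NP replicate 1 at the bottom to SNI-NP replicate 2 at the top. Its log2 fold change was 0.03 ± 0.87 (SE). Both differences were far smaller than the spread between rats.

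The level of *Scn10a* differed 19.3-fold between the highest and the lowest library and that of *Scn11a* 23.0-fold, whereas the ratio of *Scn10a* to *Scn11a* counts stayed between 1.47 and 1.79 in all 6 libraries. Both genes followed the ganglion markers. Per 100 CPM of summed ganglion markers, *Scn10a* was between 31.7 and 36.8 CPM in sham rats and at 32.5 and 35.2 CPM in SNI-NP replicates 2 and 3. SNI-NP replicate 1 was lower on this scale as well, at 19.4 CPM. Without that library the log2 fold change was 0.55 for *Scn10a* and 0.58 for *Scn11a*, and without SNI-NP replicate 2 it was -0.56 for each. With all 6 libraries the direction also turned with the model, since the values were 0.31 and 0.29 with offsets for gene length and -0.62 and -0.64 with the replicate number as a block. No direction is therefore given for either gene.

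*Scn9a* (ENSRNOG00000006639), the Nav1.7 gene, was at 31.2, 55.2 and 54.3 CPM in sham replicates 1 to 3 and at 9.22, 23.0 and 23.7 CPM in SNI-NP replicates 1 to 3. The highest SNI-NP rat was below the lowest sham rat. Sham rats averaged 46.9 ± 13.6 CPM and SNI-NP rats 18.6 ± 8.18 CPM (SD, n = 3 each), a log2 fold change of -1.33 ± 0.38 (SE), the most negative of the 9 genes. It parted from *Scn10a*, as the ratio of *Scn9a* to *Scn10a* counts was 0.354, 0.300 and 0.240 in sham rats but 0.0832 and 0.112 in SNI-NP replicates 2 and 3. In SNI-NP replicate 1 the ratio was 0.643, the highest of all. Per 100 CPM of ganglion markers, *Scn9a* was between 8.82 and 11.2 CPM in sham rats, at 12.5 CPM in SNI-NP replicate 1, and at 2.71 and 3.94 CPM in SNI-NP replicates 2 and 3. SNI-NP replicate 1 was thus low in *Scn9a* together with the ganglion markers, while SNI-NP replicates 2 and 3 were low in *Scn9a* with ganglion markers inside or above the range of sham rats. The part of the ganglion content in these values was not tested.

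**Figure D2:**
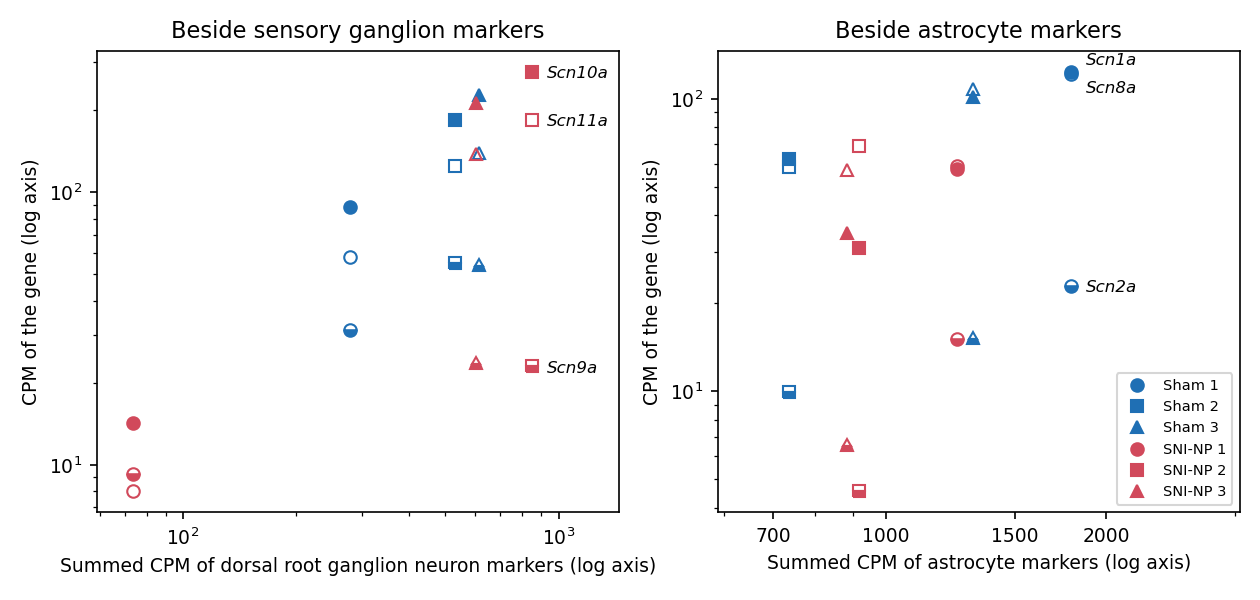
CPM of *Scn10a* (filled), *Scn11a* (open) and *Scn9a* (part filled) against the summed CPM of 9 dorsal root ganglion neuron markers, and of *Scn1a* (filled), *Scn8a* (open) and *Scn2a* (part filled) against the summed CPM of 5 astrocyte markers, on log axes. Each point is 1 library. *Scn10a* and *Scn11a* climb with the ganglion markers from 73.7 to 850 CPM, whereas *Scn9a* lies at 23.0 and 23.7 CPM in SNI-NP replicates 2 and 3.

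Among the channels of central neurons, *Scn1a* (ENSRNOG00000053122), which encodes Nav1.1 of fast-spiking neurons, was at 124, 62.2 and 102 CPM in sham replicates 1 to 3 and at 57.8, 31.0 and 34.9 CPM in SNI-NP replicates 1 to 3. The groups did not overlap, though SNI-NP replicate 1 and sham replicate 2 were close. Sham rats averaged 96.2 ± 31.4 CPM and SNI-NP rats 41.2 ± 14.5 CPM (SD, n = 3 each), with a log2 fold change of -1.22 ± 0.31 (SE). Sham replicate 2, the lowest sham rat for *Scn1a*, also had the lowest astrocyte markers. Per 100 CPM of astrocyte markers, *Scn1a* was between 6.93 and 8.46 CPM in sham rats and between 3.37 and 4.62 CPM in SNI-NP rats, so the lowest sham and the highest SNI-NP rat were farther apart on this scale. For *Scn3a* and *Scn9a*, in contrast, the groups overlapped on this scale. *Scn3a* was between 0.298 and 0.653 CPM in sham rats and between 0.282 and 0.368 CPM in SNI-NP rats. *Scn9a* was between 1.74 and 7.51 CPM in sham rats and between 0.737 and 2.68 CPM in SNI-NP rats.

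*Scn8a* (ENSRNOG00000005309), which encodes Nav1.6, the main channel of mature nodes of Ranvier and axon initial segments, was at 122, 58.6 and 108 CPM in sham replicates and at 59.0, 69.1 and 57.2 CPM in SNI-NP replicates. Sham replicate 2 lay within the range of the SNI-NP rats, and the other 2 sham rats lay above it. The log2 fold change was -0.64 ± 0.25 (SE), and it was -0.89 without sham replicate 2. *Scn8a* and *Scn1a* had nearly equal counts in 4 libraries, with a ratio of *Scn1a* to *Scn8a* between 0.948 and 1.06 in sham rats and of 0.980 in SNI-NP replicate 1. In SNI-NP replicates 2 and 3 the ratio was 0.449 and 0.610.

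*Scn2a* (ENSRNOG00000005018), the Nav1.2 gene of unmyelinated central axons, was at 22.9, 9.97 and 15.2 CPM in sham replicates and at 15.1, 4.55 and 6.55 CPM in SNI-NP replicates. SNI-NP replicate 1 lay within the range of the sham rats, while the other 2 SNI-NP rats lay below it. Its log2 fold change was -0.87 ± 0.48 (SE), and -1.53 without SNI-NP replicate 1. *Scn3a* (ENSRNOG00000005007), the Nav1.3 gene, was at 5.34, 4.81 and 5.67 CPM in sham replicates and at 4.02, 2.59 and 3.25 CPM in SNI-NP replicates, without overlap. Its log2 fold change was -0.67 ± 0.23 (SE). The level of this gene was thus low in all libraries, and no SNI-NP rat lay above any sham rat.

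*Map2* and *Snap25*, 2 of 8 general neuron markers, had negative log2 fold changes beside these central channel genes. *Map2*, which encodes a dendritic microtubule protein, was at 308, 135 and 237 CPM in sham replicates and at 158, 60.1 and 73.2 CPM in SNI-NP replicates, with a log2 fold change of -1.22. *Snap25*, a gene of synaptic vesicle release, was at 278, 156 and 254 CPM in sham replicates and at 177, 130 and 133 CPM in SNI-NP replicates, with a log2 fold change of -0.65. Both had their highest level in sham replicate 1 and their lowest in SNI-NP replicate 2, as *Scn1a*, *Scn2a* and, for the lowest level, *Scn3a* did. Of the 8 general neuron markers these 2 were lower at an unadjusted p under 0.05 and 0 were higher, and the median log2 fold change of the 8 was -0.24. The 8 markers summed to between 3975 and 5820 CPM in sham rats and to 2369, 5406 and 4371 CPM in SNI-NP replicates 1 to 3. This sum did not follow the central channel genes. It was inside the sham range in SNI-NP replicate 2, the lowest library for *Scn1a*, *Scn2a* and *Scn3a*. The sum of the ganglion markers was likewise lowest in SNI-NP replicate 1, at 73.7 CPM, and was 850 CPM in SNI-NP replicate 2. As the 8 markers are general to neurons, their sum does not separate central neurons from ganglion neurons. The part of the neuron markers in the values of *Scn1a*, *Scn2a*, *Scn3a* and *Scn8a* was not tested.

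*Scn3a*, *Scn2a*, *Scn1a* and *Scn9a* lie in this order on chromosome 3 in the RefSeq annotation, with *Scn7a* next to them. The deposited counts of these 4 genes were not whole numbers in 6, 3, 4 and 5 libraries, in the order given, whereas those of the other 5 genes were whole in all libraries to within 1e-06. The 4 alpha subunits are similar in sequence, and how reads shared between them were counted was not tested, so their separate values are less certain than those of the other genes.

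Of the beta subunits, *Scn4b* (ENSRNOG00000026679) was at 235, 147 and 249 CPM in sham replicates and at 122, 220 and 164 CPM in SNI-NP replicates. The groups overlapped, and the log2 fold change was -0.32 ± 0.26 (SE). *Scn2b* (ENSRNOG00000016221) was at 34.8, 17.3 and 30.4 CPM in sham replicates and at 25.4, 24.5 and 21.6 CPM in SNI-NP replicates, all 3 of which lay inside the range of the sham rats. Its log2 fold change was -0.21 ± 0.25 (SE). Per 100 CPM of astrocyte markers *Scn2b* was nearly level, between 1.94 and 2.66 CPM over all 6 libraries.

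Over all genes, the quasi-likelihood test of edgeR, adjusted by the Benjamini-Hochberg method, called 0 of 14426 genes (0%) at an adjusted p under 0.05, while 1565 (10.8%) had an unadjusted p under 0.05 and DESeq2 called 211 (1.46%) at an adjusted p under 0.05. At the unadjusted threshold 4 of the 9 sodium channel genes, *Scn1a*, *Scn3a*, *Scn8a* and *Scn9a*, were lower in SNI-NP rats and 0 were higher, beside 5.94% lower and 4.91% higher genes among all tested. Lower levels without overlap between the groups were seen in 3 of the 9 genes, *Scn1a*, *Scn3a* and *Scn9a*, and in 8.14% of all genes, and higher levels without overlap in 0 of the 9 and in 10.3% of all genes. DESeq2 called 2 of the 9, *Scn1a* and *Scn9a*, beside 1.05% of all genes lower by that rule. The log2 fold change was negative in 7 of the 9 genes, with a median of -0.64 against 0.01 over all genes tested. Since the genes were listed with this contrast known, these counts are not a test of the 9 genes, and nothing further is read from them.

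Gene length moved with the same contrast, though not alike in every library. All 7 alpha subunit genes were longer than 5800 bases by the length that the deposited values imply, from 5877 in *Scn11a* to 9296 in *Scn9a*. This limit was set after the lengths were seen. Among the 845 tested genes above it the median log2 fold change was -0.11, and 14.0% were lower at the unadjusted threshold. The median deviation of these genes from their mean log2 CPM was 0.12, 0.04 and 0.06 in sham replicates 1 to 3. In SNI-NP replicates 1 to 3 it was 0.12, -0.16 and -0.03, so SNI-NP replicate 1 was level with the highest sham rat. In genes of up to 2000 bases the median was 0.03 and 3.96% were lower. With offsets for length in each library the log2 fold change was -1.01 for *Scn1a*, -1.0 for *Scn9a*, -0.48 for *Scn3a* and -0.41 for *Scn8a*, and *Scn8a* and *Scn9a* no longer passed the unadjusted threshold. Of all genes past that threshold 65.1% were higher in SNI-NP rats with these offsets and 45.2% without them.

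**Figure D3:**
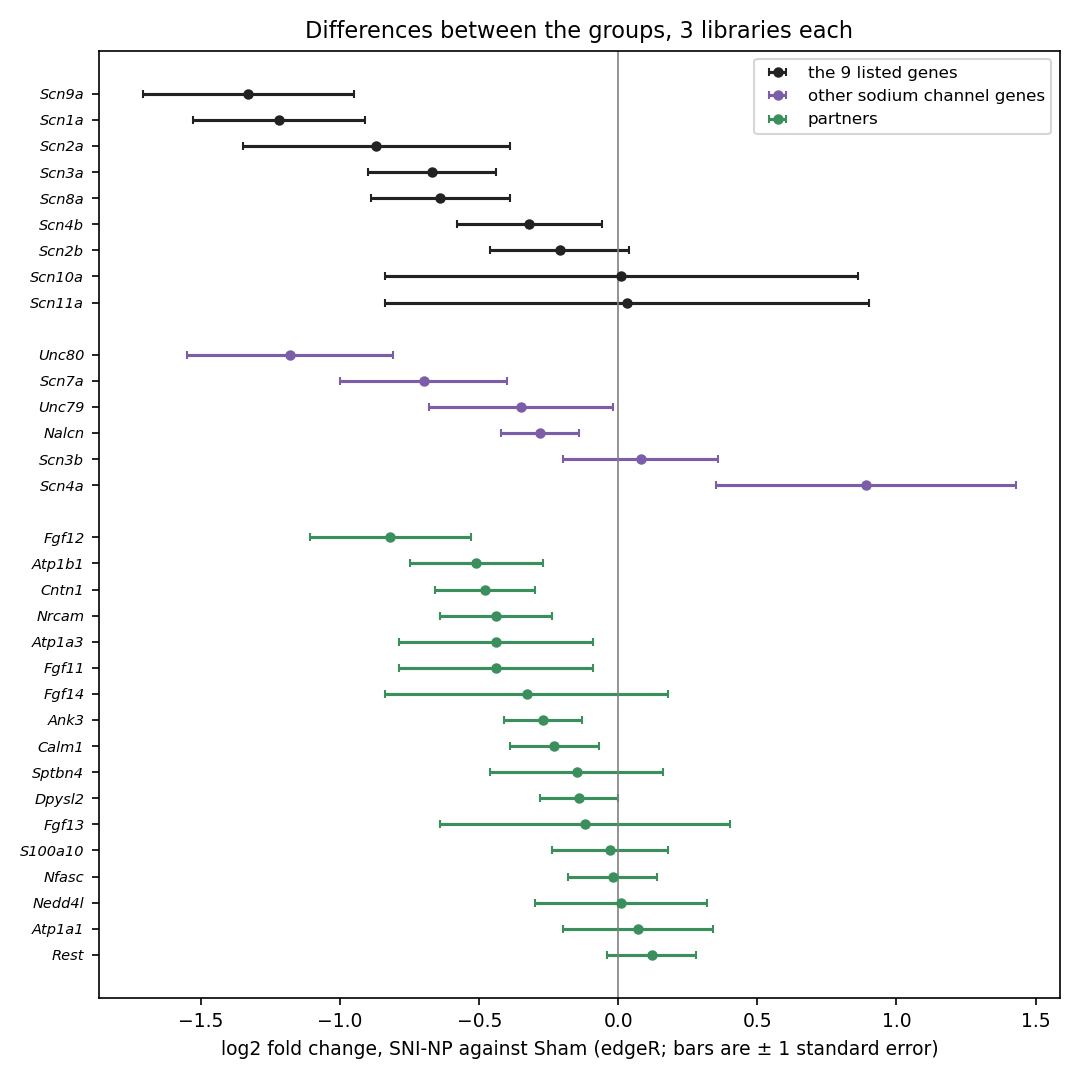
The log2 fold change of SNI-NP against sham rats from edgeR, with bars of ± 1 standard error, for the 9 sodium channel genes, further sodium channel genes and 17 partners, 3 libraries per group. *Scn9a* at -1.33 and *Scn1a* at -1.22 lie farthest from 0, and *Scn10a* and *Scn11a* have the widest bars.

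The related genes were 8 other sodium channel genes and 17 partners, all of which were tested. Of the 8, *Scn7a* and *Unc80* were lower in SNI-NP rats at the unadjusted threshold and 0 were higher. *Scn7a* encodes the sodium-sensing channel Nax, which is found in glia including Schwann cells. It was at 140, 205 and 151 CPM in sham replicates and at 144, 62.4 and 98.7 CPM in SNI-NP replicates, with SNI-NP replicate 1 among the sham rats (log2 fold change -0.70 ± 0.30 SE, unadjusted p = 0.0492, adjusted p = 0.458 from edgeR). *Unc80*, a subunit of the sodium leak channel complex, was at 44.3, 25.8 and 46.9 CPM in sham replicates and at 27.1, 12.1 and 12.3 CPM in SNI-NP replicates (log2 fold change -1.18 ± 0.37 SE, unadjusted p = 0.0138, adjusted p = 0.432 from edgeR). The pore subunit of that complex, *Nalcn*, had a log2 fold change of -0.28 ± 0.14 (SE).

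*Scn3b*, a further beta subunit gene, overlapped between the groups and had a log2 fold change of 0.08 ± 0.28 (SE). The muscle channel *Scn4a* was at 1.02, 1.35 and 1.16 CPM in sham replicates and at 0.748, 3.50 and 2.32 CPM in SNI-NP replicates. Its order was not that of the skeletal muscle markers, of which 7 of 10 were in the table and whose sum was 181, 10.7 and 451 CPM in SNI-NP replicates 1 to 3 and between 12.6 and 77.2 CPM in sham rats.

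Of the 17 partners, *Fgf12* and *Cntn1* were lower at the unadjusted threshold and 0 were higher. *Fgf12*, which encodes an intracellular factor that binds the tail of sodium channels, was at 16.4, 17.0 and 21.4 CPM in sham replicates and at 6.90, 15.2 and 9.10 CPM in SNI-NP replicates, without overlap (log2 fold change -0.82 ± 0.29 SE, unadjusted p = 0.0242, adjusted p = 0.436 from edgeR). *Cntn1* encodes contactin 1, a cell adhesion molecule that binds sodium channels, and had a log2 fold change of -0.48 ± 0.18 (SE, unadjusted p = 0.0309, adjusted p = 0.439 from edgeR). *Ank3*, which encodes the ankyrin G that anchors sodium channels at initial segments and nodes, had a log2 fold change of -0.27 ± 0.14 (SE). *Nfasc*, the neurofascin gene, averaged 696 ± 116 CPM in sham rats (SD, n = 3) against 687 ± 88.5 CPM after SNI (SD, n = 3). *Fgf13* was lowest in SNI-NP replicate 1, at 25.2 CPM, and between 66.2 and 134 CPM in the other 5 libraries. *Rest*, the gene of the repressor whose site was searched above, had a log2 fold change of 0.12 ± 0.16 (SE). The median log2 fold change of the 25 related genes was -0.23, and 4 of 25 were lower at the unadjusted threshold beside 5.94% of all genes. With all 6 libraries *Scn7a* lost its call under upper-quartile factors, the replicate block and length offsets, and *Cntn1* under the replicate block and length offsets. In the 6 fits on 5 libraries *Unc80* passed each time, whereas *Scn7a*, *Cntn1* and *Fgf12* each lost the call in some, and all 3 did when replicate 3 of either group was dropped.

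Among the 14417 other tested genes, those most like the mean pattern of *Scn1a*, *Scn2a*, *Scn3a* and *Scn8a* over the 6 libraries included *Gabrb2*, a GABA-A receptor subunit gene, *Peg3*, *Ankrd34c* and *Dgke*. The likeness is a description over 6 libraries, in which many genes vary together, and a coefficient above 0.9 was reached by 293 genes (2.03%). *Peg3* was at 377, 243 and 351 CPM in sham replicates and at 247, 154 and 180 CPM in SNI-NP replicates. For *Scn10a* and *Scn11a* the most alike were *Grik1*, a kainate receptor gene, *Drgx*, a homeobox gene of the dorsal root ganglion and dorsal horn, *Avil*, which is one of the ganglion markers used above, *Acpp* and *Mrgprb4*. *Drgx* was at 9.13, 15.7 and 16.4 CPM in sham replicates and at 2.53, 21.2 and 16.6 CPM in SNI-NP replicates, and 416 genes (2.89%) passed the same limit for this pattern.

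Leaving out each library in turn showed which values depended on 1 rat. On the log2 scale *Scn1a* lay between -1.55 and -1.01 and *Scn9a* between -1.57 and -1.01. *Scn3a* lay between -0.84 and -0.53, *Scn8a* between -0.89 and -0.44 and *Scn2a* between -1.53 and -0.54. *Scn4b* ranged from -0.56 to -0.13 and *Scn2b* from -0.45 to -0.01. Marker scaling brought several of these values nearer to 0. Relative to the astrocyte markers the log2 difference was -0.96 for *Scn1a*, -0.44 for *Scn3a*, -0.32 for *Scn8a* and -1.15 for *Scn9a*. Relative to the ganglion markers it was -0.80 for *Scn1a*, -0.28 for *Scn3a*, -0.15 for *Scn8a* and -0.99 for *Scn9a*. For *Scn3a* and *Scn8a* the value without marker scaling was thus more than 1.5 times as large as on either marker scale. The beta subunit genes turned positive relative to the ganglion markers, at 0.27 for *Scn2b* and 0.10 for *Scn4b*. *Scn2b* was also positive relative to the astrocyte markers, at 0.11. On the ganglion scale SNI-NP replicate 1 was above every sham rat for *Scn1a*, *Scn3a*, *Scn8a*, *Scn9a*, *Scn2b* and *Scn4b*. SNI-NP replicates 2 and 3 were below every sham rat, except *Scn2b* in replicate 3. *Scn4b* was at 166, 25.9 and 27.2 CPM per 100 CPM of these markers in SNI-NP replicates 1 to 3. Sham rats were between 27.8 and 84.6 CPM.

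**Figure D4:**
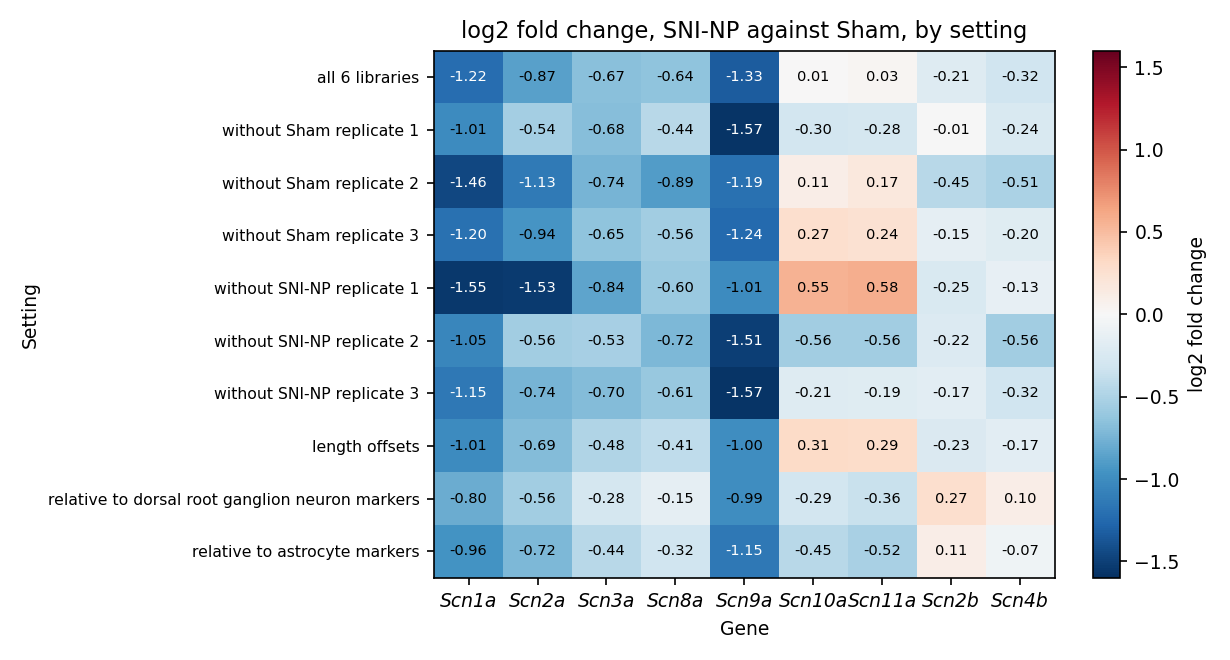
The log2 fold change of SNI-NP against sham rats for the 9 genes (columns) under 10 settings (rows), with blue for lower and red for higher values in SNI-NP rats. *Scn1a* and *Scn9a* are negative in every row shown, from -1.55 to -0.80 and from -1.57 to -0.99, and *Scn10a* and *Scn11a* change sign with the library left out.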

How the data were processed

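Spinal cord RNA of 3 sham and 3 SNI-NP rats had been sequenced as 6 libraries. The authors mapped reads to the release they call Rat6 and kept unique sequences. The submitters' processing notes name FastQC, STAR and HTSeq, and the annotation and the use of strand were not given in the sources used here. Raw estimated counts and FPKM were deposited by the authors for each gene, and 11.5% of the genes with counts had a fractional value somewhere.

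The estimated counts deposited were rounded and fitted with edgeR version 4.0.16 in R version 4.3.3 (filterByExpr, TMM scaling, quasi-likelihood test with group as the single term, Benjamini-Hochberg adjustment over 14426 genes). The paper's methods name DESeq2, which was run as an alternative (version 1.42.0). CPM values are counts scaled to the TMM library size, and FPKM was used for levels between genes and for gene length. The standard error is the log2 fold change divided by the square root of the quasi-likelihood F.

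The 9 genes and all lists were chosen with earlier results of these data known. The named genes were the 9 genes, those of the 25 related genes past the unadjusted threshold with a few well-known or abundant others, and the 5 genes most correlated with each of 2 mean patterns (log2 CPM, prior count 2). Marker lists covered neurons, motor neurons, dorsal root ganglion neurons, Schwann cells, skeletal muscle, oligodendrocytes, astrocytes, microglia, blood and spinal cord. Alternatives were RLE and upper-quartile factors, no filter, at least 10 counts in every library, a replicate block, loess offsets on gene length (span 0.5) with and without the block, FPKM ratios and leaving out each library. Values relative to ganglion and astrocyte markers were added after seeing the data. On simulated counts of 14426 genes with 200 changed by 2 on the log2 scale for SNI-NP against sham, edgeR found 86.5% of them, and 6.49% of the genes it called had not been changed. Some genes of these lists and their values are not reported here.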

Additional observations from a re-analysis of the deposited data

How the results depend on the processing

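The number of genes at an adjusted p under 0.05 was 211 with DESeq2 and 0 with edgeR, whichever of the 3 scalings, the filters, the replicate block or the length offsets was used on all 6 libraries. It was from 0 to 222 when each library was left out, with 222 without SNI-NP replicate 1 and 2 without sham replicate 2. The number at an unadjusted p under 0.05 was 1565, and from 908 to 2134 when each library was left out, with 908 without sham replicate 1, 917 without SNI-NP replicate 3 and 1019 without sham replicate 3. Of the 1565 genes 45.2% were higher in SNI-NP rats, against 65.1% with length offsets, 34.0% with the replicate block, and 27.2%, 54.4% and 33.5% when SNI-NP replicate 1, 2 or 3 was left out and 34.0%, 43.1% and 36.8% when sham replicate 1, 2 or 3 was. At that threshold 4 of the 9 sodium channel genes were called, 2 with length offsets, and from 2 (without sham replicate 3) to 5 when each library was left out. For the 25 related genes it was 4, 2 with length offsets, and from 1 to 9, with 9 without sham replicate 2 and 1 without sham replicate 3 or SNI-NP replicate 3. For each of these shifts the cause was not tested. Of the 153 alternative log2 fold changes of the 9 genes, 149 moved by less than the spread between replicates and 4 by more, and no gene past the unadjusted threshold changed direction. The spread was each gene's own SD of log2 CPM within the groups, 1.74 for *Scn10a* and 1.83 for *Scn11a*. Their changes of sign are therefore among the 149, which is not a measure of stability for these genes. For samples with the same replicate number, the correlations of their deviations were 0.214, -0.143 and 0.0538, and 2 of the 6 samples correlated best with their own number. In both groups replicate 1 had the lowest sum of ganglion markers, at 278 CPM in sham and 73.7 CPM in SNI-NP rats. It also had the highest sum of astrocyte markers, at 1793 and 1250 CPM. These few values cannot decide whether the number pairs samples. With the replicate block 1319 genes passed the unadjusted threshold, and 4 of the 9 sodium channel genes did, *Scn2a* in place of *Scn8a*.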

Other observations

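Some marker lists belong to no comparison above. The 6 motor neuron markers summed to between 305 and 486 CPM in sham rats and between 165 and 753 CPM in SNI-NP rats, and *Prph* of that list is also a gene of sensory neurons. The 5 oligodendrocyte markers summed to between 29140 and 39302 CPM in sham rats and between 28664 and 38303 CPM in SNI-NP rats, and some of them are also made by Schwann cells. The 5 microglia markers summed to between 215 and 273 CPM and between 230 and 245 CPM. The 4 blood markers summed to between 954 and 2327 CPM in sham rats and between 2059 and 4955 CPM in SNI-NP rats, and 3 of the 4 were higher at the unadjusted threshold. The 3 spinal cord Hox genes in the table, of 4 listed, summed to between 9.59 and 13.3 CPM in sham rats and between 9.86 and 11.4 CPM in SNI-NP rats.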
